A study of Mus musculus with 15 samples.

Results

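The 10 genes *Nr2e1*, *Eomes*, *Neurod1*, *Nhlh1*, *Igfbpl1*, *Tac2*, *Draxin*, *Sox4*, *Sox11* and *Dcx* are given in stage order. They were taken as markers of successive stages of adult granule cell production in the mouse dentate gyrus (DG). Values given below do not bear this out for *Neurod1* and *Nhlh1*. All 10 were chosen by symbol, and each matched 1 row of the count table, so that the set holds 10 of 32657 rows, of which 23117 had a count in some library. RNA-seq had been made from ventral (vDG) and dorsal (dDG) tissue of adult mice aged 8 to 12 weeks. All 15 libraries came from mice that carry the Drd3-Cre KI198 driver and the Rosa26-fsTRAP reporter, a Cre-dependent EGFP fused to the ribosomal protein L10a. The cKO mice also carried Htr4-Floxed, from which Cre removes exon 5 of the serotonin receptor 4 gene, and the WT mice did not. Translating ribosome affinity purification (TRAP) pulls down the tagged ribosomes with their mRNA (IP), while the input is RNA of the cleared homogenate, taken before the pull-down. There were 3 WT and 2 cKO libraries each of vDG IP, vDG input and dDG input. The driver is a bacterial artificial chromosome transgene that, in the study's histology, labels mature granule cells and hilar mossy cells and not DCX-positive immature neurons, interneurons or glia. Each library pooled mice, given as 3 per IP and 2 per input in the sample records and as 1 male and 1 female in the methods, and p-values measure the spread between such pools. The records of the inputs name cortex as their source while the titles and region fields name DG, and the latter were followed.

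New granule cells arise throughout adult life in the subgranular zone. Radial glia-like stem cells give intermediate progenitors, these give neuroblasts, and neuroblasts become immature neurons that extend processes before they mature into granule cells. Each step has its own transcription factors and structural proteins, many of which are made for a short time only. *Nr2e1* (Tlx) is a nuclear receptor that maintains neural stem cells, and *Eomes* (Tbr2) is the T-box factor of intermediate progenitors. *Neurod1* and *Nhlh1* encode basic helix-loop-helix factors of late progenitors and newly born neurons. *Igfbpl1* encodes a secreted protein related to insulin-like growth factor binding proteins, *Tac2* the precursor of the peptide neurokinin B, and *Draxin* a secreted axon guidance protein. *Sox4* and *Sox11* encode SoxC transcription factors of young neurons, and *Dcx* encodes doublecortin, the microtubule-binding protein by which immature neurons are usually stained. The order of stages is textbook knowledge and was not measured here. On GRCm38, *Nr2e1* spans chr10:42561963-42583632, *Nhlh1* chr1:172052292-172057573, *Neurod1* chr2:79452521-79456751 and *Dcx* chrX:143855842-143933311, all on the minus strand, and all 10 genes are protein-coding. The exons of *Neurod1* overlap those of *Cerkl*, on the same strand, over 201 of 2729 bases, and reads there could be lost to both genes.

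Promoter sequences are shown for the 4 genes on which the results below turn, namely the most depleted of the genes that could be tested between IP and input (*Nr2e1*), the gene with the widest gap between vDG and dDG (*Nhlh1*), its fellow helix-loop-helix gene (*Neurod1*) and the immature neuron marker (*Dcx*). Basic helix-loop-helix factors bind the E-box CANNTG, which reads the same on both strands, and capitals mark every CANNTG. Each line gives the 250 bases before the annotated start in RefSeq, build GRCm38.p6, 5′ to 3′ on the strand of the gene. All 4 genes lie on the minus strand, and the windows are chr10:42583591-42583840, chr1:172057597-172057846, chr2:79456637-79456886 and chrX:143933220-143933469 in the order of the lines (for *Dcx*, the first of 2 RefSeq entries).
Nr2e1: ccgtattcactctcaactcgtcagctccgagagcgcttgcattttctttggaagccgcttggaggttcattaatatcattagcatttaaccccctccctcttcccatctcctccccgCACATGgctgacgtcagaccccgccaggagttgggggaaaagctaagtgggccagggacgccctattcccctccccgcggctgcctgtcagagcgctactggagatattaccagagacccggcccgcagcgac
Nhlh1: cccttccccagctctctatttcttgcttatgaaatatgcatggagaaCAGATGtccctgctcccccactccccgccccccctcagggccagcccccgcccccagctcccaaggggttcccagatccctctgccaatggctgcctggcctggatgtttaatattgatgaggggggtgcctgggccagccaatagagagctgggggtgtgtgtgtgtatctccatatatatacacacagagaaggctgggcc
Neurod1: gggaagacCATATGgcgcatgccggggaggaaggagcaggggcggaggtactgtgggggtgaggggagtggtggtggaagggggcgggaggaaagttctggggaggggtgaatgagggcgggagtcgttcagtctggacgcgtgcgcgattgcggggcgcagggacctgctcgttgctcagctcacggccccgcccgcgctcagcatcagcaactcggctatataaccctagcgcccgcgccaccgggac
Dcx: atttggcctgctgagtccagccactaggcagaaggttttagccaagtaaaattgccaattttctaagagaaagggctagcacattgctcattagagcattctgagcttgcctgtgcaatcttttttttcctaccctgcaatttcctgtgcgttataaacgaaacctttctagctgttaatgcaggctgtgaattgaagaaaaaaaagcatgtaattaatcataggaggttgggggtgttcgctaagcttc
The *Nhlh1* window holds the E-box CAGATG, whose first base lies 203 bases before the start. The one E-box of *Nr2e1* is CACATG at 133 bases, and that of *Neurod1* is CATATG at 242 bases. Neither *Dcx* window holds one. Of the 9 genes with a RefSeq window, 7 held at least 1 CANNTG, and so did 66.2% of all 32851 windows of this length. CAGATG, read on both strands as CAGATG or CATCTG, was in 14.4% of all windows. A match is a description of these letters and not a bound site.

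The libraries held between 19039295 and 30451430 counts on genes, so that 1 count was about 0.033 to 0.053 per 1000000 counts on genes before scaling. Levels are given as CPM, counts per 1000000 counts on genes with the totals scaled by the TMM method. *Htr4* itself stood at 13.6 to 18.6 CPM in the WT vDG libraries and at 26.7 to 29.8 CPM in those labelled cKO, and in dDG at 24.9 to 33.9 CPM in WT and 47.1 and 51.3 CPM in cKO. The row sums all exons, so the loss of exon 5 cannot be read from it and it does not check the genotype labels. Granule cell markers were present in every library, with a summed level of 1660 CPM or more over 6 genes. WT replicate 1 stood apart for the genes followed here. It was the lowest of the 3 replicates in all 3 WT groups for *Nr2e1*, *Igfbpl1*, *Draxin*, *Sox11* and *Dcx*, which is 5 of 10 genes, against 10.5% of the 13310 genes with a mean of at least 1 CPM. Nothing in the labels says that the replicates numbered 1 share mice. Values without single libraries of this number are given where they change a call.

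The 10 genes differed widely in abundance. Per kilobase of exon, *Neurod1* was the most abundant in the 10 inputs (32.5 ± 4.28 CPM per kb, SD), and *Sox11* came next (13.7 ± 2.52 CPM per kb). *Nhlh1* (6.81 ± 4.999), *Dcx* (5.21 ± 1.47) and *Nr2e1* (4.97 ± 1.26 CPM per kb) followed with spreads that overlap when the regions are pooled. Their order turned with the region, at 6.25 ± 1.03 for *Nr2e1*, 4.29 ± 0.867 for *Dcx* and 1.77 ± 0.247 CPM per kb for *Nhlh1* in the WT vDG inputs (n = 3), and at 10.1 ± 2.09 for *Nhlh1*, 4.84 ± 1.78 for *Dcx* and 4.08 ± 0.504 CPM per kb for *Nr2e1* in the WT dDG inputs (n = 3). *Sox4* stood at 0.749 ± 0.272 CPM per kb. *Tac2* (0.436 ± 0.165), *Draxin* (0.208 ± 0.121), *Igfbpl1* (0.195 ± 0.145) and *Eomes* (0.146 ± 0.0983 CPM per kb) were rare, and *Eomes* and *Igfbpl1* did not exceed 1.45 CPM in any input. The SDs given without a region are over inputs of both regions and genotypes, and that of *Nhlh1* mostly spans the gap between regions described below.

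**Figure D1:**
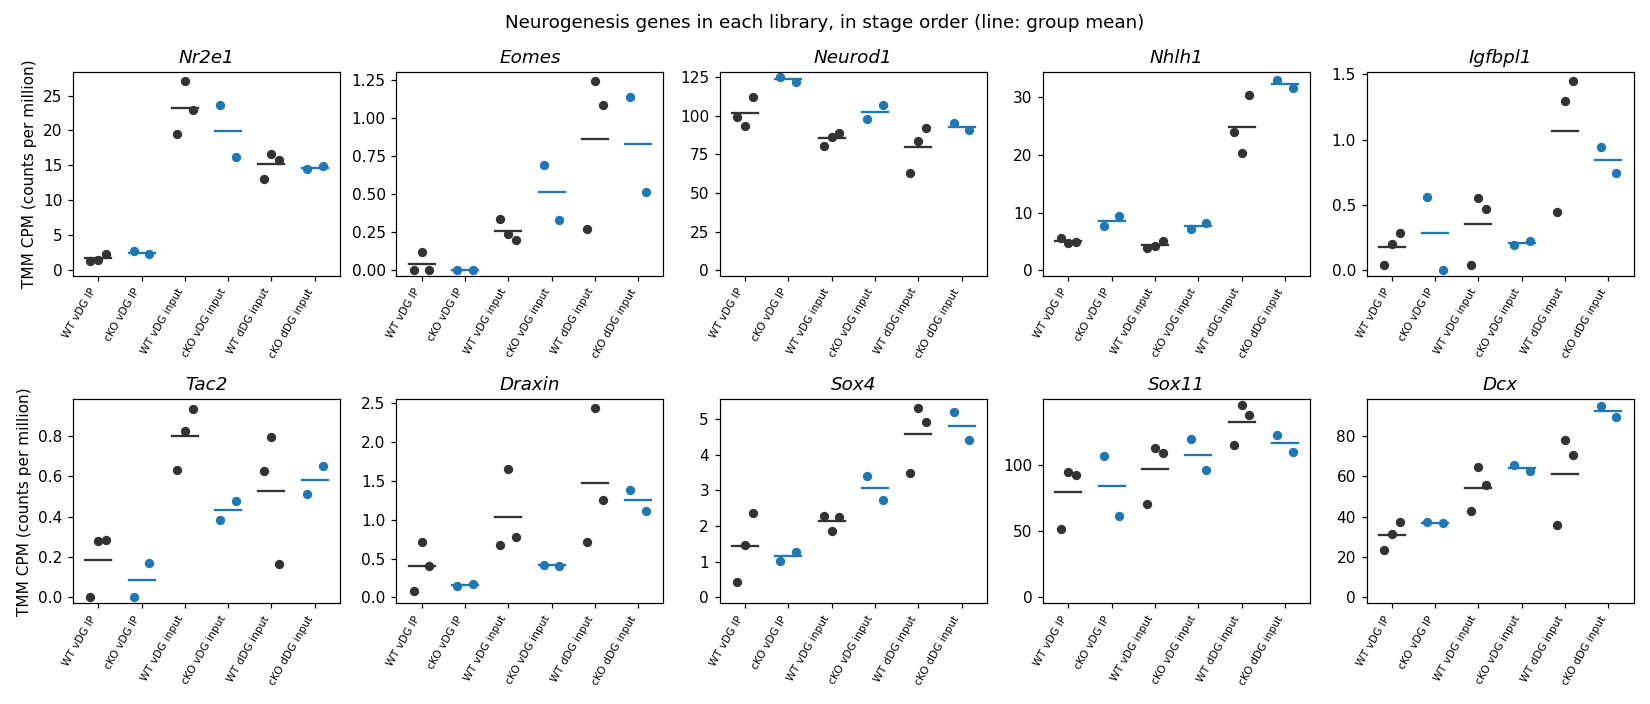
TMM-scaled CPM of the 10 genes in all 15 libraries, one panel per gene in stage order, with libraries on the x axis grouped by genotype, region and fraction. Points are libraries (WT dark, cKO blue) and lines are group means. *Nr2e1* drops from 16.2 to 27.1 CPM in the vDG inputs to 1.24 to 2.72 CPM in the IPs, and *Nhlh1* is at 20.3 CPM or more in every dDG input and at 9.42 CPM or less in every vDG library.

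The comparison of IP with input in vDG asks which of these transcripts were on the ribosomes of Cre-expressing, mostly mature neurons. The stem cell gene *Nr2e1* was strongly depleted from the IP, *Dcx* was roughly halved in both genotypes, and the helix-loop-helix genes *Neurod1* and *Nhlh1* stood at or slightly above their input level. In bulk samples, fewer cells of a type and less RNA per cell cannot be told apart. By the limits that the study used (false discovery rate, FDR, under 0.05 with a fold under 0.5), 2 of the 8 genes that could be tested were depleted from the WT IP and 2 of 8 from the cKO IP, against 11.4% and 10.7% of all genes tested. With the FDR alone and no limit on the fold, 3 of 8 were lower in each genotype, against 16.1% and 15.7% of all genes. *Eomes* and *Igfbpl1* had too few counts to be tested, and 0 of 8 passed as enriched in either genotype (FDR under 0.05, fold of at least 1.25), against 7.72% of all genes in WT and 11.4% in cKO.

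*Nr2e1* was read at 1.24, 1.51 and 2.38 CPM in the WT IPs and at 19.5, 27.1 and 23.0 CPM in the WT vDG inputs. Every IP library lay far below every input library. The log2 fold change was −3.82 ± 0.23 (SE, FDR = 4.37e-08 by edgeR's quasi-likelihood test), which is 14.2-fold lower. The cKO IPs held 2.72 and 2.31 CPM against 23.7 and 16.2 CPM in the inputs, a log2 fold change of −3.01 ± 0.25 (FDR = 4.66e-06). The difference between the genotypes in this depletion was 0.84 ± 0.36 on the log2 scale (FDR = 1 in the edgeR interaction). Stem cells share *Nr2e1* with part of the astrocyte lineage, and the 8 astrocyte markers were all depleted too, at a median of −2.85 in WT and −2.83 in cKO on the log2 scale. Their summed level was 1260 to 1888 CPM in the WT IPs against 4596 to 5255 CPM in the WT vDG inputs, and no astrocyte marker was at 0 in any group.

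*Eomes*, the intermediate progenitor gene, was close to the limit of detection. The WT IPs held 0, 3 and 0 counts and the WT vDG inputs 9, 7 and 5 counts, a ratio per count on genes of 0.136 with an exact 95% counting interval of 0.026 to 0.456. In cKO the IPs held 0 counts in both libraries and the inputs 18 and 9 counts, so that the IP was at least 8.74-fold lower when 3 counts over the group are taken as the floor and the input counts as exact. The exact 95% counting interval of the cKO ratio, which includes the error of the input counts, reaches up to 0.151. All IP libraries were below all input libraries in each genotype, as they were for 20.7% of all genes tested in WT and 33% in cKO. These intervals and floors cover counting error only, since the reads carry no molecular identifiers.

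The helix-loop-helix pair behaved differently. *Neurod1* was read at 99.3, 93.3 and 112 CPM in the WT IPs and at 80.6, 86.4 and 89.2 CPM in the inputs. The IPs were all above the inputs, yet the log2 fold change of 0.19 (95% interval −0.064 to 0.44, FDR = 0.271 by edgeR) did not pass. Every IP lay above every input for 20.9% of all genes tested in WT and for 32% in cKO. In cKO, 125 and 122 CPM in the IPs stood above 97.7 and 107 CPM in the inputs (log2 fold change 0.25 ± 0.10, edgeR FDR = 0.0974). *Nhlh1* held 5.65, 4.76 and 4.83 CPM in the WT IPs and 3.84, 4.23 and 5.03 CPM in the inputs, which overlap. Its log2 fold change had a 95% interval of −0.30 to 0.62 in WT and of −0.37 to 0.63 in cKO, so a halving in the IP lies outside both intervals, while a rise of up to about 1.5-fold lies inside. For these 2 genes a label of immature neuron genes is not borne out by the IP, where neither was lower than in the input.

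Among the neuroblast and early neuron genes with few counts, *Tac2* stood at 0, 0.28 and 0.28 CPM in the WT IPs and at 0.63, 0.83 and 0.94 CPM in the inputs. The groups did not overlap, and the log2 fold change was −2.13 ± 0.68 (edgeR FDR = 0.0358). That call was lost on leaving out any one WT library other than IP replicate 3, with FDRs of up to 0.120. In cKO, with 4 counts in the IPs against 23 in the inputs, *Tac2* did not pass (log2 fold change −2.26, edgeR FDR = 0.142). *Draxin* had log2 fold changes of −1.43 ± 0.61 in WT and −1.41 ± 0.86 in cKO and passed in neither (edgeR FDRs 0.108 and 0.251). *Igfbpl1* held 13 counts in the WT IPs against 29 in the inputs and 12 against 11 in cKO, all 12 of them in replicate 1, and no direction can be read from these.

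Of the SoxC factors, *Sox4* was lower in the cKO IPs (1.03 and 1.26 CPM) than in the cKO inputs (3.42 and 2.72 CPM), with a log2 fold change of −1.44 ± 0.41 (edgeR FDR = 0.0214). Without either cKO input library that call was lost (edgeR FDRs 0.253 and 0.111). In WT, 0.44, 1.47 and 2.38 CPM in the IPs overlapped 2.27, 1.86 and 2.26 CPM in the inputs. *Sox4* is 1 exon on chromosome 13, of which an antisense transcript covers 2616 of 4795 bases, and reads of the pair cannot be told apart: the methods give HTSeq at its default settings, which count by strand, but the TruSeq RNA kit v2 used for the libraries does not mark strand. *Sox11*, the more abundant of the pair, overlapped between IP and input in both genotypes at −0.35 ± 0.21 in WT and −0.38 ± 0.20 in cKO on the log2 scale, and missed the threshold (edgeR FDRs 0.254 and 0.181). The cKO value of *Sox11* rested on single IP libraries. It was −0.80 without cKO IP replicate 1 (edgeR FDR = 9.00e-06, still short of the fold limit) and −0.030 without cKO IP replicate 2 (edgeR FDR = 0.909).

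*Dcx* was read at 23.5, 31.2 and 37.5 CPM in the WT IPs and at 42.6, 64.5 and 55.5 CPM in the inputs. All IPs were below all inputs, with a log2 fold change of −0.88 ± 0.18 (edgeR FDR = 0.00225) that corresponds to 0.542 of the input level. The cKO IPs held 37.3 and 36.6 CPM against 65.7 and 62.4 CPM, a log2 fold change of −0.82 ± 0.12 (edgeR FDR = 3.70e-04). Both pass the FDR and miss the limit of a fold under 0.5. The WT value crosses that limit without IP replicate 3 (−1.02), without input replicate 1 (−1.01), or with library size alone for scaling (−1.01). All 8 astrocyte markers and 7 of 8 interneuron markers in WT passed the same limit, with a median of −2.80 for the interneuron markers. Per kilobase, *Dcx* ranked 3 of 10 genes in the WT IPs and 4 of 10 in the cKO IPs (2.43 ± 0.556 CPM per kb in WT, n = 3).

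**Figure D2:**
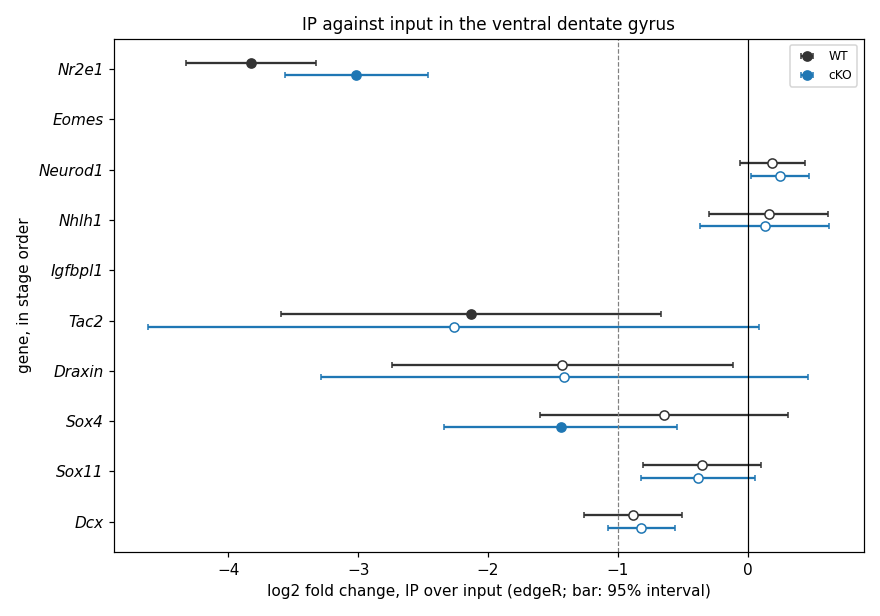
Log2 fold change of the IP over the input in vDG for each of the 8 genes tested, with 95% intervals from edgeR, in WT (dark) and cKO (blue). Filled points pass the FDR of 0.05 and the fold limit, drawn as a dashed line at −1, and the values run from −3.82 for *Nr2e1* to 0.25 for *Neurod1*.

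Other genes of the same stages, from lists chosen by role, were read beside the 10 genes. Of 9 tested stem cell and progenitor genes, 7 were depleted from the IP in each genotype, with medians of −2.94 in WT and −2.91 in cKO, where the median of all genes was 0.0029 and −0.028. The radial glial fatty acid binding protein gene *Fabp7* fell by 4.18 on the log2 scale in WT (edgeR FDR = 1.99e-08), the Notch target *Hes5* fell by 3.50 and *Sox2*, a factor of stem cells and astrocytes, fell by 3.30. In cKO, *Fabp7* (−4.23), *Sox2* (−3.51) and *Hopx*, a gene of quiescent stem cells and astrocytes (−3.17), led the list. Astrocytes express several of these genes too, and the part of astrocytes in the values was not tested. Of the cell cycle genes, 1 of 8 was depleted in WT (*Cenpf*, −1.02), near the 11.4% of all genes, and 2 of 8 in cKO (*Top2a*, −2.10, and *Cenpf*, −1.41), against 10.7%. Called or not, 8 of 8 had negative values in each genotype, with medians of −0.46 in WT and −0.26 in cKO.

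Of 7 tested neuroblast genes, *Cd24a*, a surface glycoprotein of young neurons, was the 1 that was depleted in both genotypes (−1.14 in WT, edgeR FDR = 0.0462, and −1.59 in cKO, edgeR FDR = 0.00143). That count is near the 11.4% and 10.7% of all genes that were depleted, and the WT libraries of *Cd24a* overlapped between IP and input. In cKO, *Neurod6* (0.58) and *Neurod2* (0.55), which mature excitatory neurons also express, were enriched. Of 12 genes of the immature neuron cytoskeleton and adhesion, *St8sia2*, which adds polysialic acid to the adhesion molecule NCAM, was depleted in WT (−2.28 ± 0.55, edgeR FDR = 0.00769). In cKO 0 of these 12 genes were depleted, and the lowest log2 fold change among them was −0.27. The cKO IPs of *St8sia2*, at 1.03 and 0.97 CPM, lay between the cKO inputs. In the same list 2 of 12 genes, *Marcksl1* (0.52) and *Crmp1* (0.43), were enriched in WT, where 7.72% of all genes were, and 4 of 12 in cKO, where 11.4% were, led by *Marcksl1* (0.55), *Tubb3* (0.41) and *Crmp1* (0.39). The medians of these 2 lists lay between −0.25 and 0.076, near that of all genes.

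The comparison of vDG with dDG inputs asks where along the axis these transcripts lie. *Nhlh1* was far lower in vDG in both genotypes. *Sox4* was lower in WT vDG and *Igfbpl1*, *Draxin* and *Dcx* were lower in cKO vDG, while *Nr2e1* was higher in WT vDG. Lists of other neuroblast and immature neuron genes, given below, held genes that were higher in vDG and genes that were lower. In WT, 1 of 9 tested genes was higher (9.26% of all genes) and 2 of 9 were lower in vDG (6.09%). In cKO, 0 of 10 were higher (8.56%) and 4 of 10 lower (8.47%), and the unadjusted p was under 0.05 for 6 genes in all.

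*Nhlh1* was read at 3.84, 4.23 and 5.03 CPM in the WT vDG inputs and at 24.0, 20.3 and 30.5 CPM in the WT dDG inputs. In cKO the vDG inputs held 7.22 and 8.10 CPM and the dDG inputs 33.0 and 31.7 CPM. The regions were apart by a wide margin in both genotypes. The log2 fold change was −2.50 ± 0.18 in WT (edgeR FDR = 7.55e-08), which is 5.67-fold lower in vDG, and −2.09 ± 0.16 in cKO (edgeR FDR = 1.15e-08), which is 4.25-fold lower. The vDG IPs, at 4.76 to 9.42 CPM, also lay below every dDG input.

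*Nr2e1* went the other way, with 19.5, 27.1 and 23.0 CPM in WT vDG against 13.1, 16.7 and 15.7 CPM in WT dDG. No libraries overlapped, and the log2 fold change was 0.63 ± 0.15 (edgeR FDR = 0.00921). Without WT vDG input replicate 2 it was 0.50 (edgeR FDR = 0.0606). In cKO, 23.7 and 16.2 CPM in vDG stood against 14.4 and 15.0 CPM in dDG, and 0.43 ± 0.17 did not pass (edgeR FDR = 0.0964). It passed with library size alone (0.50, edgeR FDR = 0.0490) and with the replicate number as a block (0.41, edgeR FDR = 0.0374). On leaving out 1 library the value ran from 0.12 to 0.67, the latter without cKO vDG input replicate 2, the library at 16.2 CPM. *Eomes* had the opposite order in its means, 0.257 CPM in WT vDG and 0.865 CPM in WT dDG, with 21 against 64 counts, but the replicates of dDG ran from 6 to 33 counts and overlapped vDG.

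*Sox4* was lower in WT vDG (2.27, 1.86 and 2.26 CPM) than in WT dDG (3.50, 5.32 and 4.93 CPM), with a log2 fold change of −1.09 ± 0.25 (edgeR FDR = 0.00667). In cKO the same direction did not pass (−0.66 ± 0.26, edgeR FDR = 0.0854), and it passed without cKO vDG input replicate 1 (−0.85, edgeR FDR = 0.0455). Its relative *Sox11* held 70.3, 113 and 109 CPM in WT vDG and 115, 145 and 138 CPM in WT dDG, and missed the threshold (−0.44 ± 0.15, edgeR FDR = 0.0644). *Sox11* passed without WT dDG input replicate 1 (−0.53, edgeR FDR = 0.0359) or without WT vDG input replicate 2 (−0.56, edgeR FDR = 0.0482), and also with DESeq2 (−0.45, FDR = 0.0389) and with no count filter (−0.43, edgeR FDR = 0.00847). With the replicate number as a block it passed too (−0.46, edgeR FDR = 0.00483).

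For *Dcx* the regions overlapped in WT and were apart in cKO. With fewer libraries such a gap is commoner: all vDG inputs lay below all dDG inputs for 15.2% of genes in WT and 27.6% in cKO. WT vDG held 42.6, 64.5 and 55.5 CPM and WT dDG 35.6, 77.9 and 70.2 CPM, and these overlap through dDG replicate 1. The log2 fold change was −0.16 (95% interval −0.61 to 0.29, edgeR FDR = 0.684), and without replicate 1 in both groups it was −0.30 (edgeR FDR = 0.228). In cKO, 65.7 and 62.4 CPM in vDG lay below 94.5 and 89.4 CPM in dDG, with a log2 fold change of −0.53 ± 0.11 (edgeR FDR = 0.00253). With all 15 libraries in one fit the *Dcx* call in cKO was lost at the same fold (−0.54, edgeR FDR = 0.219). The difference between the genotypes in this gap was −0.37 ± 0.31 on the log2 scale (FDR = 0.684 in the edgeR interaction), so a difference between WT and cKO was not shown.

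The rare genes *Igfbpl1* and *Draxin* were lower in cKO vDG. *Igfbpl1* held 0.19 and 0.22 CPM in vDG and 0.95 and 0.75 CPM in dDG (−2.02 ± 0.64, edgeR FDR = 0.0342). *Draxin* held 0.42 and 0.40 CPM in vDG and 1.38 and 1.12 CPM in dDG (−1.60 ± 0.52, edgeR FDR = 0.0395). Each call was lost when any one of the 4 cKO inputs was left out, with edgeR FDRs from 0.0811 to 0.291 for *Igfbpl1* and from 0.0855 to 0.288 for *Draxin*. In WT both genes overlapped between the regions and did not pass (edgeR FDRs 0.117 and 0.591). *Igfbpl1* passed in WT without WT dDG input replicate 1 (−1.94, edgeR FDR = 0.0462) and with no count filter (−1.56, edgeR FDR = 0.0384), and *Eomes*, which could be tested under both settings, passed as lower in vDG as well. With the replicate number as a block *Igfbpl1* also passed in WT (−1.69, edgeR FDR = 0.0239). *Neurod1* and *Tac2* did not pass in either genotype, and the 95% interval of *Neurod1* was −0.17 to 0.39 in WT and −0.11 to 0.37 in cKO.

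**Figure D3:**
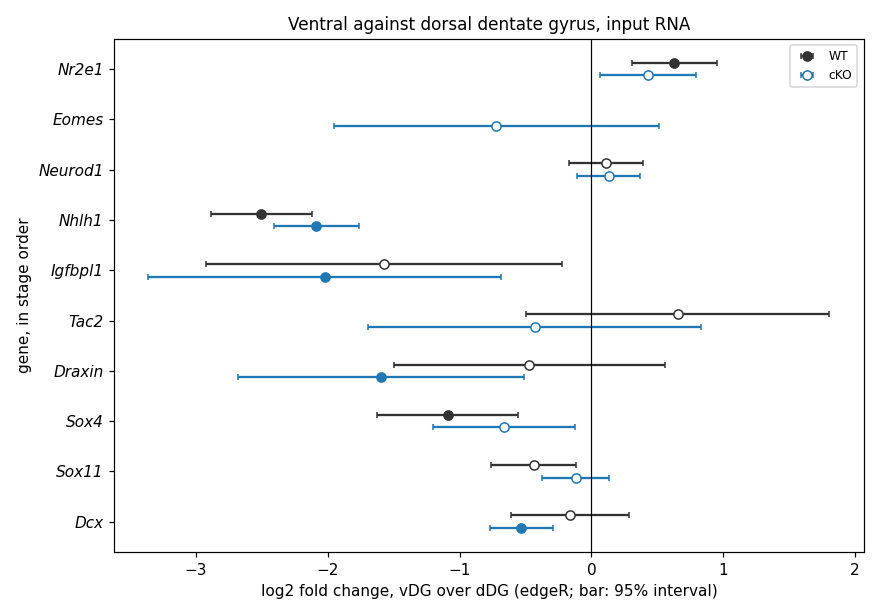
Log2 fold change of vDG over dDG input for each gene tested, with 95% intervals from edgeR, in WT (dark) and cKO (blue). Filled points pass an FDR of 0.05, and *Nhlh1* stands apart at −2.50 in WT and −2.09 in cKO.

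The lists of the same stages were split by region, where 9.26% of all genes were higher and 6.09% lower in WT vDG, and 8.56% and 8.47% in cKO vDG. Of 9 tested stem cell and progenitor genes, 2 were higher in WT vDG and 5 in cKO vDG and none was lower, with medians of 0.15 and 0.46, where the median of all genes was −0.0076 and 0.0084. *Fabp7* (0.67 in WT, 1.07 in cKO) and *Hes5* (0.81 and 1.12) rose in both genotypes, and *Sox2* (0.97) rose in cKO. Among 10 cell cycle genes 1 was lower in vDG in each genotype, *Top2a* in WT (−1.15 ± 0.36, edgeR FDR = 0.0372) and *Mki67*, the Ki-67 antigen of dividing cells, in cKO (−1.31 ± 0.22, edgeR FDR = 2.23e-04), near the 6.09% and 8.47% of all genes that were lower. Called or not, 7 of the 10 had negative values in WT (median −0.27) and 10 of 10 in cKO (median −0.56). The 8 astrocyte markers had medians of 0.083 and −0.10 between regions, and 1 of them was higher in vDG in each genotype and 0 and 2 lower. Markers of mature granule cells were lower in vDG, with 4 of 6 called in each genotype and medians of −0.53 in WT and −0.51 in cKO. Their summed level was 1660 to 2018 CPM in WT vDG against 2837 to 3351 CPM in WT dDG, and 1945 to 2074 CPM against 2355 to 2732 CPM in cKO. Interneuron markers were higher in vDG for 4 of 8 genes in WT and 3 of 8 in cKO, with medians of 0.55 and 0.50. No marker of these 2 lists was at 0 in any group. Oligodendrocyte markers were lower in vDG for 3 of 6 genes in WT and 2 of 6 in cKO. Of the choroid plexus genes tested, 2 of 4 were lower in WT vDG and 1 of 2 higher in cKO vDG. Of 4 CA pyramidal cell genes, 1 was higher and 2 lower in WT, and 1 higher and 1 lower in cKO. Of the Cajal-Retzius genes tested, 1 of 4 was higher in WT and 1 of 5 in cKO. The part of all these cells in the regional values was not tested.

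Of the neuroblast genes, 5 of 7 were higher and 1 lower in WT vDG, and 3 of 8 were higher and 2 lower in cKO vDG, with medians of 1.49 and 0.52. Of all genes, 9.26% were higher and 6.09% lower in WT vDG, and 8.56% and 8.47% in cKO vDG. Among the neuroblast genes *Calb2* (calretinin) was 32.2-fold higher in WT vDG (63.8 to 81.4 CPM against 1.35 to 2.98 CPM, edgeR FDR = 1.06e-10) and 37.3-fold higher in cKO. Mossy cells of the mouse vDG also make calretinin, and the vDG IPs held 56.6 to 84.1 CPM. *Elavl2* (1.51 in WT and 0.99 in cKO), in WT *Insm1* (1.67), a zinc finger factor of progenitors, and in cKO *Neurod6* (0.55) were higher in vDG as well. *Neurod6* was higher in WT vDG too, at 182 to 259 CPM against 54.0 to 130 CPM in WT dDG. At most 3 genes per direction are named for each genotype, so a gene named for 1 genotype may also differ in the other. *Neurod2* was lower in vDG in both genotypes (−1.18 and −0.72), and *Cd24a* was lower in cKO (−0.74). Of the 12 cytoskeleton and adhesion genes, 4 were higher and 1 lower in WT vDG, and 6 were higher and 1 lower in cKO vDG, where the 1 lower gene is near the share of all genes. *Stmn2* (1.54 and 0.76) and *Gap43* (1.24 and 1.07), which mature neurons with plastic axons also express, rose in both genotypes, *Dpysl3* rose in WT (1.10) and *Stmn1*, which encodes the microtubule-destabilising stathmin, in cKO (0.53), and *Dpysl5* fell in both (−0.65 and −0.90).

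The comparison of cKO with WT asks whether these transcripts differ when the receptor gene is floxed. Of the 10 genes, *Nhlh1* passed in the vDG input, where the libraries labelled cKO held 1.74 times the WT level, and no gene passed in the dDG input or the vDG IP. In the vDG input 1 of 9 tested genes passed, against 2.44% of all genes (385 of 15786) and, for higher in cKO, 0.108%. In the dDG input 0 of 10 passed, against 0.0325% of all genes (5 of 15383), and in the vDG IP 0 of 6, against 0.42% (60 of 14300, at the FDR of 0.1 that the study used there). These shares rest on single libraries. The 385 calls fell to 6 without cKO vDG input replicate 1 and to 50 without replicate 2, and ran from 235 to 638 on leaving out a WT library. The 60 calls in the IP fell to 0 without WT IP replicate 2 or cKO IP replicate 1 and to 4 without cKO IP replicate 2, and rose to 184 and 127 without WT IP replicates 1 and 3. The 5 calls in the dDG input ran from 0 to 130. The unadjusted p was under 0.05 for 2 members in each of the 3 comparisons, and DESeq2 called 0 members in the dDG input and the IP.

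*Nhlh1* stood at 3.84, 4.23 and 5.03 CPM in the WT vDG inputs and at 7.22 and 8.10 CPM in the cKO vDG inputs. All cKO libraries were higher, and the log2 fold change was 0.80 ± 0.21 (95% interval 0.36 to 1.24, edgeR FDR = 0.0448). The call was lost on leaving out any one of the 5 libraries, with FDRs from 0.0593 to 0.332 and log2 fold changes from 0.71 to 0.91. The vDG IPs read 5.65, 4.76 and 4.83 CPM in WT and 7.65 and 9.42 CPM in cKO (0.78 ± 0.23, edgeR FDR = 0.236), and the dDG inputs 24.0, 20.3 and 30.5 CPM in WT and 33.0 and 31.7 CPM in cKO (0.37 ± 0.16, edgeR FDR = 0.364). In all 3 comparisons every cKO library lay above every WT library, as it did for 15.7% of all genes tested in the vDG input, 12% in the vDG IP and 13.9% in the dDG input, and IPs and inputs may share homogenates and do not count as separate evidence.

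For *Dcx* the cKO values were 65.7 and 62.4 CPM in the vDG inputs against 42.6, 64.5 and 55.5 CPM in WT, which overlap. The log2 fold change was 0.23 with a 95% interval of −0.076 to 0.54, or 0.949-fold to 1.45-fold (edgeR FDR = 0.494). In the dDG inputs 94.5 and 89.4 CPM lay above 35.6, 77.9 and 70.2 CPM (0.59 ± 0.22, edgeR FDR = 0.307), and without WT dDG input replicate 1, the library at 35.6 CPM, the log2 fold change was 0.32 (edgeR FDR = 0.251). With no count filter the same fold passed (0.59, edgeR FDR = 0.00155). Under that setting 378 of all 21685 genes tested passed, against 5 of 15383 with the filter. In the IPs 37.3 and 36.6 CPM overlapped 23.5, 31.2 and 37.5 CPM (0.31 ± 0.18, edgeR FDR = 0.530). *Neurod1* had log2 fold changes of 0.25 ± 0.13, 0.22 ± 0.14 and 0.32 ± 0.13 in the vDG input, the dDG input and the IP (edgeR FDRs 0.357, 0.573 and 0.381), and its cKO libraries lay above all WT libraries in the vDG input and the IP.

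The stem cell gene *Nr2e1* had a log2 fold change of −0.23 (95% interval −0.60 to 0.14) in the vDG input and −0.045 (−0.38 to 0.29) in the dDG input. The cKO libraries of *Draxin* and *Tac2* in vDG lay below all WT libraries without passing (−1.33 ± 0.56, edgeR FDR = 0.254, and −0.89 ± 0.55, edgeR FDR = 0.476), as the cKO libraries did for 17.1% of all genes there. *Sox4* (0.51 ± 0.30), whose cKO libraries lay above all WT libraries, and *Sox11* (0.14 ± 0.16) did not pass in the vDG input, nor did *Igfbpl1* (−0.77 ± 0.83), and *Eomes* had too few counts there with 27 in cKO and 21 in WT. The intervals of these rare genes are wide, and a difference of 2-fold lies inside that of *Draxin*, *Tac2* and *Igfbpl1*.

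**Figure D4:**
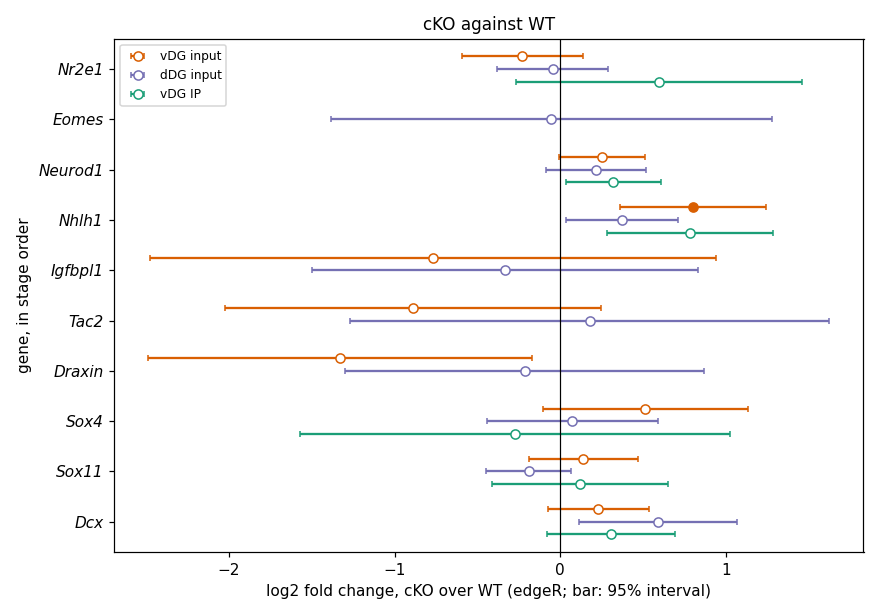
Log2 fold change of cKO over WT for each gene tested in the vDG input (orange), dDG input (violet) and vDG IP (green), with 95% intervals from edgeR. One point is filled for a passed threshold, *Nhlh1* in the vDG input at 0.80, and all 3 *Nhlh1* intervals lie above 0.

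Markers of other cells moved with genotype in the same vDG inputs. The 8 astrocyte markers summed to 2683 and 2942 CPM in the cKO vDG inputs against 4596 to 5255 CPM in WT, and 4 of the 8 passed as lower (*Slc1a2* by −0.92), against 2.33% of all genes. None of the 8 was at 0 in either group, and their part in the results was not tested. Of the other marker lists, 1 of 6 mature granule cell genes (*Dsp*, −0.94) and 1 of 5 oligodendrocyte precursor genes (*Cspg4*, −0.91) passed as lower in the cKO vDG inputs, and 1 of 4 tested choroid plexus genes passed as higher (*Ttr*, 1.11). The 6 microglia markers had medians of −0.61 in the vDG input and −0.53 in the dDG input, all 6 with negative values in both, and 0 passed. In the dDG inputs the 6 choroid plexus markers summed to between 31.9 and 150 CPM in WT and between 18.03 and 23.1 CPM in cKO. None of the 4 tested passed (median −3.34), though all 4 had an unadjusted edgeR p under 0.05. Of the lists by stage, 0 of 9 stem cell and progenitor genes, 0 of 9 cell cycle genes and 0 of 8 neuroblast genes passed in the vDG input. Of 12 cytoskeleton and adhesion genes 1 was lower there, *Ncam1*, which carries polysialic acid in immature neurons and is also made by mature ones (−0.54 ± 0.14, edgeR FDR = 0.0302). In the dDG input and the IP no gene of these 4 lists passed.

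Neither interaction gave a call. For genotype by region, 0 of 16306 genes passed (0%), 2010 had an unadjusted p under 0.05, and DESeq2 called 250 genes and 0 members. For genotype by fraction, 0 of 16093 genes passed (0%), 497 had an unadjusted p under 0.05, and DESeq2 called 0 genes. None of the 10 genes had an unadjusted p under 0.05 for region, and 1 had it for fraction (*Nr2e1*, given above). The regional gap of *Nhlh1* was smaller in cKO by 0.42 ± 0.25 on the log2 scale, which did not pass (edgeR FDR = 0.537).

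Across the 10 inputs, the genes whose level was most like that of *Dcx* were *Cd24a* (Pearson r = 0.968), *Eif4g2* (0.955), *Ttbk2* (0.939), *Nup88* (0.938) and *Akap10* (0.934), out of 13542 genes. Of the other genes followed here, the highest correlation with *Dcx* was that of *Neurod1* (0.674, rank 432), and that of *Nr2e1* was −0.0644. These correlations describe libraries that share genotype, region and replicate structure, including the low WT dDG replicate 1, and carry no test.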

How the data were processed

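RNA-seq of vDG IP, vDG input and dDG input was analysed from 3 WT and 2 cKO libraries of each. Per the methods, the authors amplified cDNA, trimmed the reads, aligned them to mm10 with STAR 2.4.2a, removed duplicates with SAMtools 0.1.19-444 and counted reads on genes with HTSeq at its default settings. They deposited whole-number counts per gene without normalization. The 5 deposited comparison tables hold the authors' own fold changes and p-values and were not used here. Samples were grouped and numbered by the titles, which number the cKO dDG inputs 1 and 2 where the names of the deposited files have 2 and 3.

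With R 4.3.3 and edgeR 4.0.16, the libraries of each comparison were scaled by TMM, rare genes dropped by filterByExpr, and differences tested by quasi-likelihood F-tests (two-sided) with Benjamini-Hochberg adjustment (FDR) over all genes tested. Thresholds were an FDR of 0.05 (0.1 between genotypes in the IP), joined for IP against input by a fold of at least 1.25 or under 0.5. Levels are TMM CPM over all 15 libraries, and SEs and 95% intervals of fold changes come from the F statistics. Ratios of rare counts have exact binomial intervals, and a floor of 3 counts was used. Totals of 19039295 to 30451430 counts set the precision. No 2 libraries of a group held the same values within sampling noise. Scripts were tested on simulated data. Positions and exon lengths came from GENCODE M21 on GRCm38, and promoters from RefSeq. Python 3.11.15 and DESeq2 1.42.0 were also used.

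The genes, the lists and the tests were chosen with earlier results of these data known. Named besides the 10 genes were, for each list of a stage and each comparison, the called genes of largest change, up to 3 higher and 3 lower, and the 5 genes most like *Dcx* with a mean of at least 1 CPM. *Slc1a2*, *Dsp*, *Cspg4*, *Ttr* and *Htr4* were named after their values were seen. Same-numbered libraries of the WT groups correlated in their deviations at −0.33 to 0.46 between IP and input and at −0.11 to 0.38 between regions, and no label says that a number marks shared mice, so the replicate number was not used as a block. Alternatives were DESeq2, its size factors or library size for scaling, no filter on counts, a minimum of 10 in every library, one fit of all 15 libraries, the block, other thresholds and leaving out each library, and, added after seeing the data, leaving out WT replicate 1 in both groups. Marker lists of oligodendrocytes and their precursors, microglia, endothelial and mural cells, CA pyramidal cells, Cajal-Retzius cells and medial habenula were also read. In WT IP against input, 5 of 6, 4 of 5, 6 of 6, 2 of 6, 1 of 3 and 1 of 4 tested genes of these lists were depleted, in that order, and none could be tested for the habenula. The dissection markers *Lct* and *Trhr* separated dDG from vDG in both genotypes, in opposite directions.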

Additional observations from a re-analysis of the deposited data

How the results depend on the processing

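The number of the 10 genes called kept its side or stayed within 1.5 times its value under most alternatives. IP against input in WT gave 1 in place of 2 with at least 10 counts in every library and 1 without WT replicate 1 in both groups (chosen after seeing the data), and 1 to 3 on leaving out 1 library. In cKO leaving out 1 library gave 1 to 3. For vDG against dDG in WT, 3 became 6 with no count filter and 5 with the replicate block (*Igfbpl1* joined at −1.69, FDR = 0.0239, and *Sox11* at −0.46, FDR = 0.00483), and 3 to 6 on leaving out 1 library, with 6 without WT dDG input replicate 1. In cKO, 4 became 2 with DESeq2 in place of edgeR, 1 with all 15 libraries in one fit (*Dcx*, *Igfbpl1* and *Draxin* lost their calls) and 2 to 3 on leaving out 1 library. For cKO against WT, the 1 call in the vDG input became 0 on leaving out any library (range 0 to 0), the dDG input gave 1 with no count filter (*Dcx*, FDR = 0.00155), and the IP gave 1 with all 15 libraries in one fit (*Nhlh1*, FDR = 0.0569). These last 2 settings also raised the calls over all genes, from 5 to 378 in the dDG input and from 60 to 470 in the IP. The causes were not tested, except that fewer genes or libraries entered where the setting says so. The replicate block changed no other count by over 1.5 times, though *Nr2e1* passed with it in cKO vDG against dDG (0.41, FDR = 0.0374). The block takes the numbers from the titles, and for the cKO dDG inputs the titles give 1 and 2 where the names of the deposited files give 2 and 3.

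Many signs that turned belong to values near 0 or to rare genes. Others do not, among them the cKO over WT values of *Sox4* in the IP (−0.27) and *Nr2e1* in the vDG input (−0.23). With library size alone, *Nhlh1* in cKO IP against input became −0.042 and *Draxin* by fraction −0.030. With the block, the cKO over WT changes in dDG became 0.28 for *Eomes*, 0.077 for *Igfbpl1* and −0.29 for *Tac2*, and that of *Sox4* in the IP 0.45. Without WT replicate 1 in both groups, *Nhlh1* in WT IP against input became −0.012 and *Neurod1* in WT vDG against dDG −0.0011. By fraction, *Nhlh1* became 0.0098 and *Sox11* 0.0059 with no count filter, and *Nhlh1* 0.0016 with at least 10 counts in every library. On leaving out 1 library, log2 values that turned ranged as follows. By fraction, *Dcx* ran from −0.13 to 0.23, *Draxin* from −0.50 to 0.77, *Igfbpl1* from −4.41 to 2.49, *Nhlh1* from −0.16 to 0.14, *Sox11* from −0.46 to 0.34 and *Tac2* from −4.38 to 0.80. By region, *Igfbpl1* ran from −0.97 to 0.063, *Neurod1* from −0.10 to 0.17 and *Nr2e1* from −0.50 to 0.048. For WT vDG against dDG, *Dcx* ran from −0.44 to 0.042, *Draxin* from −0.99 to 0.073 and *Neurod1* from −0.039 to 0.22, and in cKO *Sox11* from −0.30 to 0.019. In cKO IP against input *Nhlh1* ran from −0.021 to 0.31. For cKO against WT in dDG, *Draxin* ran from −0.52 to 0.34, *Eomes* from −0.75 to 0.40, *Nr2e1* from −0.14 to 0.033, *Sox4* from −0.080 to 0.19 and *Tac2* from −0.28 to 0.61. In the vDG input *Nr2e1* ran from −0.52 to 0.013 and *Sox11* from −0.042 to 0.28, and in the IP *Sox11* from −0.35 to 0.46 and *Sox4* from −0.70 to 0.29.

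Library size alone shifted the median of all genes to −0.13 in WT and −0.20 in cKO IP against input, and the share of calls that were higher from 40.4% to 20.3% and from 51.4% to 27.1%. For cKO vDG against dDG that share went from 50.3% to 65.3%. Counts of all genes called for cKO against WT moved widely. With DESeq2 they went from 385 to 605 in the vDG input, from 5 to 189 in dDG and from 60 to 353 in the IP. The fit of all 15 libraries gave 140 in the vDG input, no count filter gave 660 there, and the replicate block gave 137 in dDG. Where a group was left with 1 library, its spread was taken from the other group. Depth limits *Eomes*, *Igfbpl1*, *Tac2* and *Draxin*, which held under 3 CPM in every library.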

Other observations

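*Htr4*, the gene whose exon 5 is floxed, was higher and not lower in the libraries labelled cKO when all its exons were counted together. The log2 fold change of cKO over WT was 0.86 ± 0.16 in the vDG input (edgeR FDR = 0.00644), 0.93 ± 0.17 in the vDG IP (edgeR FDR = 0.0705, past the FDR of 0.1 used there) and 0.75 ± 0.14 in the dDG input (edgeR FDR = 0.0978, not past 0.05). Every cKO library exceeded every WT library of the same region and fraction. *Htr4* was also lower in vDG than in dDG inputs, by −0.89 ± 0.16 in WT and −0.80 ± 0.13 in cKO on the log2 scale (edgeR FDRs 6.60e-04 and 1.23e-04), and IP and input differed by −0.10 ± 0.16 and −0.037 ± 0.14. Counts on single exons were not analysed here, and the loss of exon 5 in cKO rests on the study's own view of the reads.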
